A study of Rattus norvegicus with 70 samples.

Results

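Metallothioneins and the carriers that move zinc across membranes were followed through 6 tissues of male rats of the inbred Wistar-Kyoto strain. The rats breathed either air or ozone, an oxidant gas, at 0.8 ppm for 4 h, and messenger RNA was sequenced from lung, liver, hypothalamus, adrenal gland, muscle and adipose tissue. The 9 genes were taken by their symbols. They were the metallothioneins Mt1, Mt1m, Mt2A and Mt3, the exporters Slc30a1 and Slc30a10, the importers Slc39a14 and Slc39a8, and the regulator Mtf1. All 9 were among the 19441 gene entries used from each tissue's table. Lung, liver and hypothalamus had 6 air and 6 ozone libraries each, adrenal gland 5 and 6, adipose tissue 5 and 5, and muscle 6 and 5, 68 in all. The age of the rats is not given, and the labels name no other treatment and no genotype beyond the strain. They do not say that each library came from a separate rat, so a p-value measures the spread between these libraries. Air libraries carry the numbers up to 12 and ozone libraries those from 13, so any order of handling that follows the numbers cannot be told apart from ozone.

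Metallothioneins are small cysteine-rich proteins that bind zinc and copper and buffer them in the cell. Free zinc is sensed by the transcription factor MTF1, which binds metal response elements (MREs) in front of metallothionein genes and of Slc30a1, and glucocorticoids and inflammatory signals also induce metallothioneins in many tissues. Carriers of the SLC30 family move zinc or manganese out of the cytosol and carriers of the SLC39 family move zinc, manganese or iron into it. The liver takes up zinc through SLC39A14 during the acute-phase response.

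The promoters show where the MRE core lies in the genes that the results turn on. Of the 9 genes, 6 had an entry in RefSeq's promoter set of the GRCr8 build, which runs from 250 bases before to 50 bases after the gene start. The values were counted on another build, rn6. Searched on both strands for the letters TGCACNC or TGCGCNC, the promoter of Mt1 held 6 matches and that of Mt2A 4, that of Mt3 3, those of Slc30a1 and Mtf1 2 each, and that of Slc39a8 0. Of 33469 rat promoters of that length, 24.2% held at least 1 match, 6.36% at least 2 and 0.439% at least 4. Below, the matches are in capitals, read 5′ to 3′ along each gene's own strand. Those read on the opposite strand appear as their reverse complement, as in GAGTGCA. Mt1 and Mt2A, on the minus strand, occupy chr19:10832926-10833225 and chr19:10838659-10838958, Mt3, also on the minus strand, chr19:10856031-10856330, and Slc30a1, on the plus strand, chr13:106021769-106022068.
Mt1: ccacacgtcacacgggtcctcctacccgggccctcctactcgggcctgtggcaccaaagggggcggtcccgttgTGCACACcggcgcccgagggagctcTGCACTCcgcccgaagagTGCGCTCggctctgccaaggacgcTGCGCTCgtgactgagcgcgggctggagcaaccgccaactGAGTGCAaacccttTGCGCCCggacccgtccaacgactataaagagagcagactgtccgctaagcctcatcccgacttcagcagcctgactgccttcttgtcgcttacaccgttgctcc
Mt2A: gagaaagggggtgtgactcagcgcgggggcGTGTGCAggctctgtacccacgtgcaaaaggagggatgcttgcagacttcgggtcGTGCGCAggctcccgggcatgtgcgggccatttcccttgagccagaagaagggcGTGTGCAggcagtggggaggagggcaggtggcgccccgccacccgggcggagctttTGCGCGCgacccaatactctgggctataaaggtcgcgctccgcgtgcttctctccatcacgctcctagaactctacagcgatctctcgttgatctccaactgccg
Mt3: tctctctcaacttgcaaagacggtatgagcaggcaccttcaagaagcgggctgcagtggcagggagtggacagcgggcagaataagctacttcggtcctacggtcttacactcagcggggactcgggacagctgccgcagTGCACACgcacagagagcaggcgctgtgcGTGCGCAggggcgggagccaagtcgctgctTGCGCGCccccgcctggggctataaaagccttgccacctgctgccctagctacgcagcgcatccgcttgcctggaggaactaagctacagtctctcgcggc
Slc30a1: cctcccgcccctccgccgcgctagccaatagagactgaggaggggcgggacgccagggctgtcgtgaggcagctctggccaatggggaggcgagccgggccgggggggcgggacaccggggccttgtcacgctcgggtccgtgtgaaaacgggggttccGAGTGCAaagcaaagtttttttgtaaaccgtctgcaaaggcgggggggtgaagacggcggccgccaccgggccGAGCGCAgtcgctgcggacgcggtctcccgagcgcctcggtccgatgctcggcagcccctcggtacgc
The antioxidant response core TGACNNNGC matched once each in Mt1, Mt2A, Slc30a1 and Slc39a8, in 2 places in Mtf1 and in none in Mt3. Of all promoters 12.1% held at least 1 match and 0.89% at least 2. The glucocorticoid response palindrome, AGAACA and TGTTCT separated by 3 bases, matched in none of the 6 and in 0.0149% of all promoters. A match is a run of letters and not a tested site, and sites farther from the start were outside this window.

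In RefSeq, Mt1, Mt2A, Mt3 and Mt4 are neighbours, whereas Mt1m is annotated as a pseudogene elsewhere. The sources used here do not say how the authors counted reads that match several genes or whether strand was used. The split of reads between Mt1m and its relatives is therefore uncertain. The deposited values are counts divided by 1 size factor per library. Whole reads were recovered from them, from 8854272 to 18848151 per library, and levels are given as reads per 1000000 of those (rpm). Marker genes of the labelled tissue were present in every tissue. Liver markers (Alb, Apoa1, Ttr and Apoc3, summed) reached 742 and 1097 rpm in lung air 2 and air 8 and at most 130 in the other lung libraries. In adrenal gland they reached 998 and 1666 rpm in air 9 and air 11, and 577 or less in the others. Mesothelium markers (Msln, Upk3b and Lrrn4) reached 538, 216 and 488 rpm in adipose air 5, air 9 and ozone 22. Calls of the 9 genes that change without these libraries are given both ways.

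In air, Mt1 and Mt2A were highest in liver. Mt1 had a median of 340 rpm in liver and 123 in adrenal gland, and these ranges did not overlap each other or any lower tissue. Hypothalamus, lung and adipose tissue followed with overlapping ranges around medians of 5.56, 4.05 and 3.01 rpm, and muscle was lowest at 0.663. Mt2A kept liver (228 rpm) and adrenal gland (77.6) at the top, and muscle (1.81) and lung (2.93) overlapped at the bottom. Mt3, the metallothionein of the nervous system, had 22.2 to 83.6 rpm in hypothalamus and at most 0.377 rpm in every air library of the other tissues. Tables were normalised apart for each tissue, so these orders are a description.

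Mt1, Mt1m and Mt2A rose in lung, hypothalamus, adipose tissue and muscle. On the deposited values the air and ozone libraries of those tissues did not overlap for any of the 3. The share of all tested genes without overlap is not given here, so this and later statements on overlap are descriptions. In lung, Mt2A had 1.62, 2.93 and 6.51 rpm as the lowest, median and highest air values, and 37.0, 86.6 and 105 after ozone. Its log2 fold change was 4.64 ± 0.36 (SE, limma adjusted p = 3.17e-06), rank 1 among the genes tested in lung. Mt1 went from a median of 4.05 rpm (2.80 to 8.63) to 26.5 (14.1 to 35.2), a difference of 2.49 ± 0.31 on the same scale (adjusted p = 9.99e-05). Mt1m, with a median of 0.865 rpm in air and 12.6 after ozone, had 4.12 ± 0.55 (adjusted p = 0.000194). Fold changes are on the log2(value + 1) scale, which understates those of low genes. In lung, 4 of the 7 tested genes of the set rose, where 9.51% of 14828 tested genes rose and 8.18% fell. The liver marker reads bear on the low air level. At the ratio of metallothionein to marker reads in air liver, they would carry 7.36 of the 12.2 rpm of summed Mt1, Mt1m and Mt2A in air 8 and 4.97 of 16.8 in air 2. Without those libraries Mt2A had 5.08 ± 0.31 and Mt1 2.86 ± 0.28. Summed neutrophil markers (6 of 6 in the table) were 59.3 to 71.3 rpm in air and 32.5 to 43.3 after ozone in lung. Macrophage markers (6 of 6, Marco near 0) were 259 to 349 and 330 to 466 rpm. T and B lymphocyte markers (6 of 6) were 33.4 to 119 and 16.6 to 35.0 rpm, and 3 of them fell, Cd8a (−1.03 ± 0.17), Ms4a1 (−1.37 ± 0.39) and Cd79a (−0.84 ± 0.27). The part of these markers in the lung values was not tested.

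**Figure D1:**
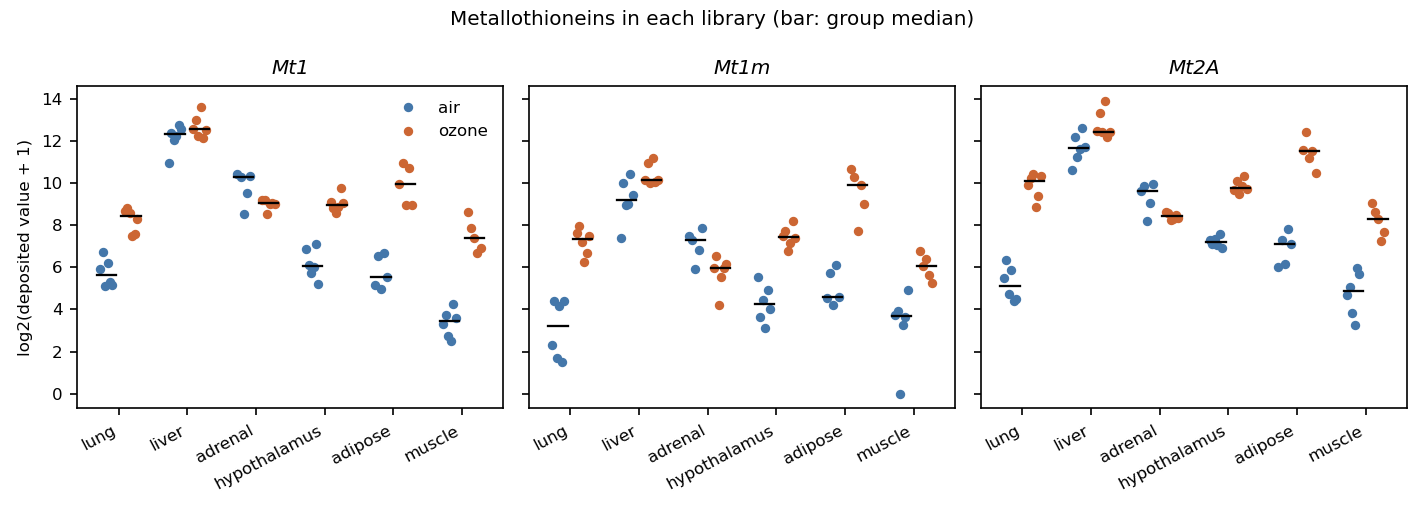
Level of Mt1, Mt1m and Mt2A in each library as log2(deposited value + 1), by tissue and exposure, with a bar at the group median. Ozone libraries lie above all air libraries in lung, hypothalamus, adipose tissue and muscle, overlap them in liver and lie low in adrenal gland, where air 8 is the lowest air library.

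Hypothalamus had few changes in all, and 3 of its 4 largest increases were metallothioneins. Of 15217 genes tested there, 0.789% rose and 0.624% fell, and of the 9 genes of the set 3 rose and none fell. Mt2A had 10.2, 12.3 and 16.4 rpm as lowest, median and highest in air, and 52.0, 74.3 and 115 after ozone. Its fold change of 2.63 ± 0.15 on the log2 scale (limma adjusted p = 7.82e-07) had the smallest standard error of the 4 metallothioneins there. Mt1 rose from a median of 5.56 rpm to 41.1 (2.85 ± 0.30, adjusted p = 0.000169) and Mt1m from 1.55 to 14.7 (3.17 ± 0.37, adjusted p = 0.000426). Mt3 did not pass. Its values of 22.2 to 83.6 rpm in air and 46.6 to 112 after ozone overlapped, with 0.76 ± 0.32 and adjusted p = 0.282. Summed astrocyte markers overlapped between the groups, at 2650 to 3696 rpm in air and 2873 to 3894 after ozone. Neutrophil markers did not, at 5.68 to 12.0 and 3.33 to 5.38 rpm, with S100a8, Cxcr2 and Ngp near 0, and their part was not tested. Liver markers reached 869, 837 and 1485 rpm in air 1, air 6 and ozone 17. At the ratio seen in air liver they would carry 22.3%, 18.2% and 4.59% of the summed metallothionein of those libraries.

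In adipose tissue Mt2A had 4.09, 10.9, 4.64, 15.6 and 8.92 rpm in the 5 air libraries and 176, 322, 150, 189 and 83.4 in the 5 ozone libraries. The lowest ozone value was thus well above the highest air value. It rose by 4.56 ± 0.40 on the log2 scale (limma adjusted p = 0.00018). Mt1 (4.13 ± 0.47, adjusted p = 0.000797) and Mt1m (4.47 ± 0.57, adjusted p = 0.00129) rose too. Here 4 of 8 tested genes of the set rose, against 3.87% of 14252 genes that rose and 3.45% that fell. Without the libraries high in mesothelium markers Mt2A had 5.00 ± 0.45.

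Muscle started from the lowest levels. Mt1 had at most 1.18 rpm in air, with a median of 0.663, and 20.7, 13.5, 8.38, 5.38 and 6.07 rpm in the 5 ozone libraries. Its log2 fold change was 4.13 ± 0.37 (limma adjusted p = 6.64e-06). Mt2A rose from a median of 1.81 rpm to 15.9 (3.45 ± 0.47), and Mt1m, at 0 in air 4, from 0.775 to 3.87 (2.78 ± 0.67). In rpm, 1 air library of Mt1m, at 1.99, lay above the lowest ozone library, at 1.90. Of 7 tested genes of the set 3 rose and 1 fell, in a tissue where 21.6% of 13043 genes rose and 22.1% fell. Scaling by total reads in place of the authors' size factors shifts the log2 ratio of every gene by −0.33 in muscle, −0.14 in adipose tissue, −0.13 in adrenal gland and less in the other tissues. On the log2(rpm + 0.1) scale, which also has another pseudocount, muscle Mt1 had 3.75, Mt2A 3.09 and Mt1m 2.33. The calls of Mt1, Mt1m and Mt2A in lung, hypothalamus, adipose tissue and muscle held in every alternative fit in which they were tested. Muscle Mt1m, with a mean of 38.1, was not tested with a minimum mean of 50. Summed muscle markers (3 of 4 in the table) did not overlap, at 21725 to 39632 rpm in air and 42335 to 58839 after ozone. Acta1 (0.81 ± 0.20) and Ckm (1.18 ± 0.26) rose. Mb, named after its values were seen, went the other way without passing (−0.82 ± 0.36, limma adjusted p = 0.0802). The part of these markers in the result was not tested.

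Liver, with the highest levels, showed none of the set past the threshold in the main limma fit. Mt2A had 117, 228 and 422 rpm as lowest, median and highest in air, and 330, 385 and 978 after ozone, so that the groups overlapped. Its log2 fold change was 1.11 ± 0.34 with limma adjusted p = 0.0516. Mt1m had 1.21 ± 0.41 (adjusted p = 0.0781) and Mt1 0.53 ± 0.30 (adjusted p = 0.325). Of 8 tested genes 0 passed, where 6.74% of 12573 genes rose and 4.72% fell. An unadjusted p under 0.05 was found for 4 (Mt1m, Mt2A, Slc30a10 and Slc39a14), against 23.3% of all genes. edgeR called 0 of the 8 and 11.3% of all genes, and DESeq2 called 1, Mt2A, and 14.8% of all genes. In limma, Mt2A passed without air 9 (1.30, adjusted p = 0.0225) or without ozone 19 (1.24, adjusted p = 0.0447), and Mt1m passed without air 9 (1.45, adjusted p = 0.0281). With array weights, limma called Mt2A (0.94, adjusted p = 0.0233), Mt1m (1.02, adjusted p = 0.0253) and Slc39a14 (0.51, adjusted p = 0.0252), beside 2302 of 12573 genes. With a minimum mean of 50 it called Mt2A (1.11, adjusted p = 0.0488), beside 1302 of 9612 genes.

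In adrenal gland Mt2A and Mt1m fell. Mt2A had 77.6, 93.3, 25.0, 51.8 and 94.4 rpm in air and 24.2, 29.2 and 35.0 as lowest, median and highest after ozone. Air 8 was thus as low as the ozone libraries, and the other 4 air libraries lay above all of them. Mt2A fell by 0.92 ± 0.27 on the log2 scale (limma adjusted p = 0.0298) and Mt1m by 1.36 ± 0.41 (adjusted p = 0.0374). Mt1, with a median of 123 rpm in air and 45.6 after ozone, had −0.82 ± 0.30 (adjusted p = 0.0756). It was called by edgeR (−0.96, adjusted p = 0.0292), by DESeq2 (−0.95, adjusted p = 0.00673) and by limma with array weights (−1.12, adjusted p = 0.000101). Of 8 tested genes 1 rose and 2 fell, where 9.23% of 14026 genes rose and 9.38% fell. These calls were close to the threshold. Mt2A missed it without air 2, 6 or 11 or ozone 17, 19 or 20, and Mt1m without air 2, 6, 9 or 11 or ozone 14, 17 or 19. With 1 library left out, Mt2A ranged from −1.20 to −0.77 and adjusted p reached 0.0801, and Mt1m ranged from −1.64 to −1.06 and adjusted p reached 0.0919. Without air 8, Mt1 passed as well (−1.15, adjusted p = 0.000691). Air 8 also had the lowest summed adrenal markers, 7602 rpm against 11942 to 21725 in the other adrenal libraries. Without air 9 and air 11, the libraries highest in liver markers, Mt2A had −0.81 with adjusted p = 0.105 and Mt1m −1.18 with adjusted p = 0.14. At the ratio seen in air liver those markers would carry 11.2 of the 240 rpm of summed metallothionein in air 11.

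**Figure D2:**
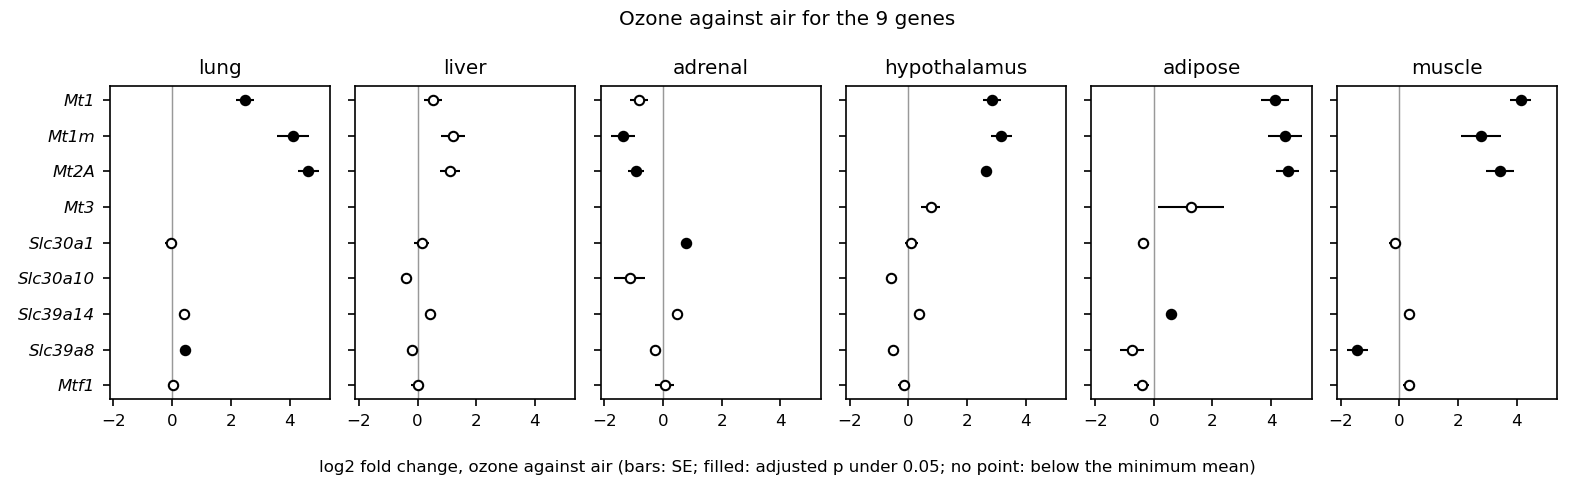
Log2 fold change, ozone against air, of each gene in each tissue, with standard errors as bars and filled points for adjusted p under 0.05. Mt1, Mt1m and Mt2A are above 2 in lung, hypothalamus, adipose tissue and muscle, and below 0 in adrenal gland; the transporters and Mtf1 stay within about 1.5 of 0.

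The median log2 fold change of the tested genes of the set was 0.43 in lung, 0.29 in liver, −0.54 in adrenal gland, 0.35 in hypothalamus, 0.93 in adipose tissue and 0.35 in muscle, beside medians of all genes from −0.0035 to 0.016. The adipose median was 0.60 without Mt3, which was tested there only through 1 library. The effect of ozone differed between tissues for each of Mt1, Mt1m and Mt2A. A limma F test over the 6 tissues gave F = 31.1 for Mt2A (adjusted p = 3.16e-13), 27.0 for Mt1 (adjusted p = 3.89e-12) and 14.6 for Mt1m (adjusted p = 6.93e-08). In this test 41.9% of 11111 genes passed. The adrenal effect of Mt2A was lower than that of lung by 5.56 ± 0.54, of adipose tissue by 5.47 ± 0.56, of muscle by 4.36 ± 0.55, of hypothalamus by 3.55 ± 0.54 and of liver by 2.03 ± 0.54, all with adjusted p of 0.00505 or less. The shares of genes that passed in those contrasts were 11.3%, 10.9%, 34.0%, 12.0% and 14.1%. The liver effect of Mt2A was lower than that of lung (3.53 ± 0.53), adipose tissue (3.45 ± 0.55) and muscle (2.33 ± 0.54), contrasts in which 6.0%, 6.53% and 26.2% of genes passed. Against hypothalamus the difference was 1.52 ± 0.53 with adjusted p = 0.0738, in a contrast that 5.93% of genes passed.

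The summed level of Mt1, Mt1m and Mt2A gives the size of these shifts. Means went from 9.07 ± 4.67 (SD, n = 6) to 116 ± 39.1 rpm (n = 6) in lung, from 21.2 ± 6.15 to 140 ± 43.0 in hypothalamus, from 15.4 ± 8.58 (n = 5) to 306 ± 144 (n = 5) in adipose tissue and from 3.61 ± 2.13 to 31.7 ± 16.1 in muscle. Adrenal gland went from 180 ± 79.2 (n = 5) to 79.7 ± 14.1 (n = 6), so that its mean after ozone was below those of lung, hypothalamus and adipose tissue. Liver stayed highest, at 630 ± 233 and 1080 ± 472 rpm. In bulk tissue, a change in how many cells of a type were present and a change in RNA per cell cannot be told apart.

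Mt2A did not move in step with Mt1 everywhere. In lung the ratio of Mt2A to Mt1 reads was 0.524, 0.746 and 0.780 as lowest, median and highest in air, and 2.40, 3.11 and 4.09 after ozone. The ratio rose by 2.15 on the log2 scale (two-sided exact permutation test, p = 0.00216, the smallest this design can give, adjusted p = 0.0195 over 18 ratios). In liver it rose from a median of 0.729 (0.560 to 0.908) to 1.06 (0.923 to 1.28), with the same p-values. Both pairs of groups were free of overlap. In muscle it went from a median of 2.73 to 1.71, with exact permutation p = 0.0173 and adjusted p = 0.0779, and in adrenal gland, hypothalamus and adipose tissue it did not pass either. The ratios of Mt1m to Mt1 and to Mt2A passed in no tissue.

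**Figure D3:**
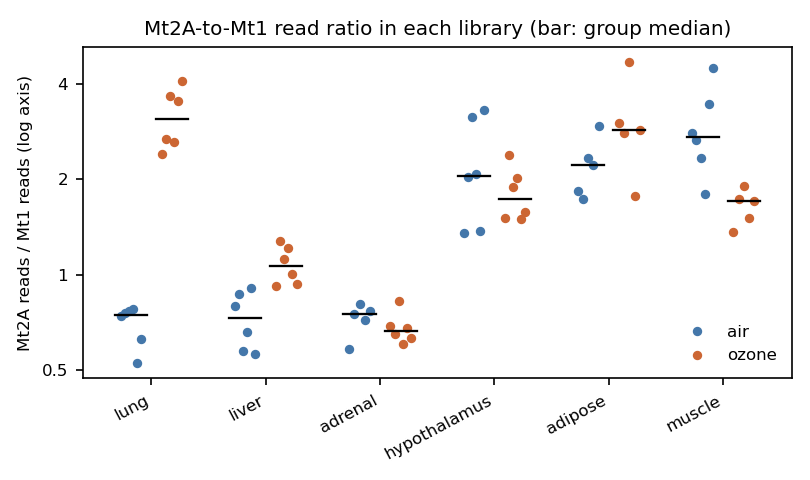
Ratio of Mt2A to Mt1 reads in each library on a log axis, by tissue and exposure, with a bar at the group median. In lung the air libraries lie below 0.8 and the ozone libraries above 2.4, and in liver the groups also separate, while the other tissues overlap or nearly touch.

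Outside hypothalamus Mt3 was close to absent. It had 0 reads in 6 air liver libraries together, which allows up to 0.0331 rpm at 3 reads (counting error only), and 5 to 13 reads in all air libraries of each of lung, adrenal gland, adipose tissue and muscle. Its mean passed the minimum of 10 in adipose tissue through ozone 22 alone, with 9.97 rpm there and at most 0.281 in any other adipose library. That library was also among those high in mesothelium markers.

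Slc30a1, the plasma membrane zinc exporter and a classic MTF1 target, rose in 1 tissue. In lung it had medians of 76.3 rpm in air and 56.1 after ozone with overlapping ranges, and its log2 fold change was −0.03 ± 0.21 (adjusted p = 0.936). It was 0.10 ± 0.22 in hypothalamus, −0.35 ± 0.19 in adipose tissue, −0.15 ± 0.20 in muscle and 0.14 ± 0.26 in liver, none past the threshold. In adrenal gland, where Mt2A and Mt1m fell, it rose. There it had 23.3, 17.4, 25.2, 25.1 and 17.5 rpm in air and 24.4, 33.8 and 40.5 as lowest, median and highest after ozone. The increase was 0.79 ± 0.18 on the log2 scale (limma adjusted p = 0.00822). Only ozone 19, at 24.4 rpm, fell within the air range. The call held without each library in turn. The F test over tissues gave adjusted p = 0.069 for Slc30a1, so a difference between tissues was not shown. It passed without lung air 10 (adjusted p = 0.0426), liver ozone 18, adrenal air 8, adrenal ozone 19 or adipose air 12, each left out alone, with F from 2.91 to 3.01.

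Slc30a10, a manganese exporter of liver and brain, did not pass in any tissue in the main limma fit. In liver it had 146, 205 and 239 rpm in air and 94.7, 150 and 191 after ozone (−0.40 ± 0.16, limma adjusted p = 0.128). In hypothalamus it had 59.0, 77.7 and 94.2 rpm in air and 39.9, 48.1 and 66.7 after ozone (−0.61 ± 0.15, adjusted p = 0.073). There it passed without air 6 (−0.68, adjusted p = 0.0456) and with array weights (−0.62, adjusted p = 0.0264). DESeq2 called it there too (−0.62, adjusted p = 0.00886). The groups overlapped in both tissues. In lung it was above 1 rpm only in air 2 and air 8, the libraries with liver markers, at 1.30 and 3.46 rpm, and in adipose tissue it had 1 read in all.

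Slc39a14, the importer of the acute-phase response, had a positive log2 fold change in all 6 tissues, with no difference between tissues shown. It was 0.41 ± 0.16 in lung, 0.44 ± 0.17 in liver, 0.48 ± 0.18 in adrenal gland, 0.35 ± 0.11 in hypothalamus, 0.60 ± 0.15 in adipose tissue and 0.33 ± 0.15 in muscle. Only the adipose value passed alone (limma adjusted p = 0.0295). There it had 43.6, 36.4, 54.8, 42.6 and 35.8 rpm in air and 49.9, 48.9, 61.3, 72.8 and 59.9 after ozone. On the deposited values those groups did not overlap, and on the rpm scale 1 air library reached into the ozone range. The adipose call was lost without any one of air 5, 9 or 12 or ozone 22 or 23, with 0.54 to 0.59 and adjusted p up to 0.0759, and it was 0.44 (adjusted p = 0.223) without the libraries high in mesothelium markers. Slc39a14 passed in lung without air 2 (0.50, adjusted p = 0.0466) and without air 2 and air 8, the libraries high in liver markers (0.60, adjusted p = 0.0209), in adrenal gland without air 8 (0.61, adjusted p = 0.00989) and in muscle without air 7 (0.40, adjusted p = 0.0404). Limma with array weights called it in liver (0.51, adjusted p = 0.0252), adrenal gland (0.61, adjusted p = 0.00126) and hypothalamus (0.36, adjusted p = 0.0369). DESeq2 called it in hypothalamus (0.36, adjusted p = 0.0405). A mean effect over the 6 tissues was added after these values were seen. For Slc39a14 it was 0.43 ± 0.06 (limma adjusted p = 1.24e-07), where 24.5% of 11111 genes had a higher and 22.0% a lower mean. The F test gave no difference between tissues (adjusted p = 0.897). On the rpm scale the muscle value was 3.33e-05, effectively 0, and the other tissues had 0.33 to 0.46.

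**Figure D4:**
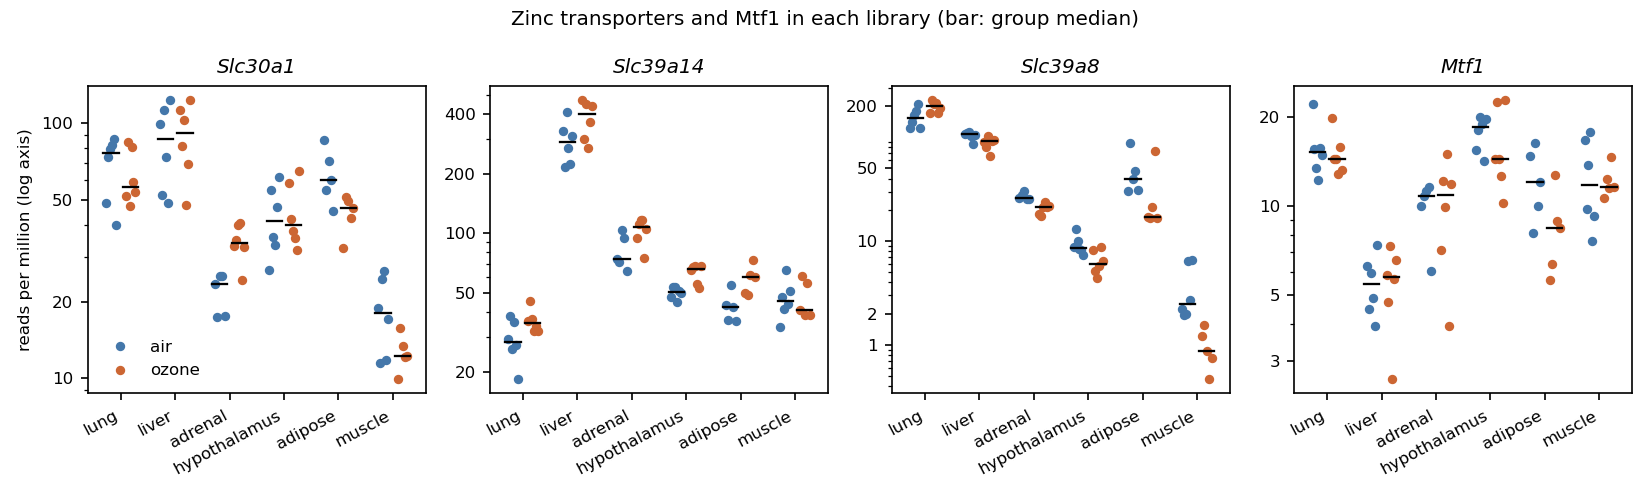
Level in rpm of Slc30a1, Slc39a14, Slc39a8 and Mtf1 in each library on log axes, by tissue and exposure, with a bar at the group median. Slc30a1 is higher after ozone in adrenal gland, Slc39a14 is higher in adipose tissue with an overlap of air 6, and Slc39a8 is higher in lung and lower in muscle.

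Slc39a8, an importer of zinc and manganese with its highest level here in lung, rose in lung and fell in muscle. In lung it had 123, 152 and 207 rpm in air and 171, 200 and 228 after ozone (0.43 ± 0.14, limma adjusted p = 0.0493). That call was at the edge of the threshold: it was lost in 10 of 12 fits with 1 library left out, without air 1, 2, 7, 8 or 10 or ozone 14, 15, 16, 19 or 20, with 0.36 to 0.47 and adjusted p up to 0.103. It was also lost without air 2 and air 8 together (0.46, adjusted p = 0.0938), by edgeR (0.41, adjusted p = 0.0618), with no minimum mean (adjusted p = 0.0583) and with array weights (0.29, adjusted p = 0.101). In muscle, where its level was lowest, it had 1.95, 2.48 and 6.55 rpm in air and 1.23, 1.55, 0.883, 0.468 and 0.758 after ozone. All ozone libraries lay below all air libraries, and it fell by 1.42 ± 0.36 on the log2 scale (adjusted p = 0.00628). Summed endothelium markers in muscle also did not overlap, at 205 to 351 rpm in air and 140 to 181 after ozone, and mesothelium markers were 2.26 to 4.01 and 0.179 to 0.526, with Upk3b and Lrrn4 near 0. Their part in the result was not tested. In adipose tissue Slc39a8 had 30.0, 88.1, 40.0, 47.0 and 31.3 rpm in air and 17.0, 16.7, 21.3, 73.9 and 16.6 after ozone. The high values, 88.1 and 73.9, were in air 5 and ozone 22, which were also highest in mesothelium markers. Over all libraries the value was −0.73 ± 0.41 (adjusted p = 0.328). It was −1.12 (adjusted p = 0.0233) without ozone 22 and −0.78 ± 0.17 (adjusted p = 0.0372) without the 3 libraries high in those markers. The F test over tissues passed for Slc39a8 (F = 5.91, adjusted p = 0.000903), and its muscle effect was lower than that of lung by 1.85 ± 0.36 (adjusted p = 8.76e-05), of liver by 1.22 ± 0.36 (adjusted p = 0.00823) and of adrenal gland by 1.16 ± 0.37 (adjusted p = 0.0106). In the contrast of lung with muscle 22.6% of genes passed. Slc39a8 had −0.21 ± 0.11 in liver, −0.26 ± 0.13 in adrenal gland and −0.51 ± 0.17 in hypothalamus, none past the threshold. Its mean effect over the 6 tissues was −0.45 ± 0.10 (limma adjusted p = 0.00029). That mean is not a common effect, since the tissues differed and lung had the opposite sign.

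Mtf1, the zinc sensor itself, passed in no tissue. Its levels in air ran from a median of 5.43 rpm in liver to 18.5 in hypothalamus, and its log2 fold changes from −0.41 ± 0.25 in adipose tissue to 0.35 ± 0.20 in muscle. The mean effect over the 6 tissues was −0.02 ± 0.10 (limma adjusted p = 0.867). On the rpm scale the signs in lung (−0.043), liver (−0.044) and adrenal gland (−0.08) were negative instead of positive, and muscle had 0.022.

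Levels of these genes also differed between libraries of 1 group. A score per library was formed after the data were seen, as the mean log2 value of genes that span under 5 kb in RefSeq minus that of genes over 100 kb, without the 9 genes. Centred on group means, its Pearson r with Mt2A was 0.86 in liver (12 libraries), 0.89 in adrenal gland (11), 0.83 in adipose tissue (10), 0.85 in muscle (11), 0.56 in hypothalamus (12) and 0.04 in lung (12). With Slc30a1, itself a short gene of 3874 bases, r was negative in every tissue, from −0.98 in hypothalamus to −0.69 in adipose tissue. The scores of air and ozone libraries overlapped in every tissue, for example −0.69 to 0.33 and −0.30 to 0.32 in adrenal gland, and air 8 held the lowest score there. The median score was higher after ozone in lung (−0.89 in air, −0.62 after ozone), hypothalamus (−0.86, −0.58), adrenal gland (0.03, 0.17) and muscle (−0.74, −0.61). It was slightly lower in liver (0.081, 0.073) and adipose tissue (−0.24, −0.31). The covariate was thus not fully balanced between the groups. With the score as a covariate, Mt2A (1.03 ± 0.19, limma adjusted p = 0.00158) and Mt1m (1.11 ± 0.26, adjusted p = 0.00889) rose in liver, and Slc39a14 in lung, liver, adrenal gland and adipose tissue. In adrenal gland, in the same fit, Mt2A fell by 1.17 ± 0.14 (adjusted p = 5.99e-05) and Mt1 by 1.11 ± 0.16 (adjusted p = 0.000192). Slc30a1 passed in hypothalamus (0.42 ± 0.08, adjusted p = 0.0142), Mtf1 in muscle (0.56 ± 0.16, adjusted p = 0.012) and Slc30a10 in liver (−0.38 ± 0.12, adjusted p = 0.0367). What the score stands for was not tested.

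**Figure D5:**
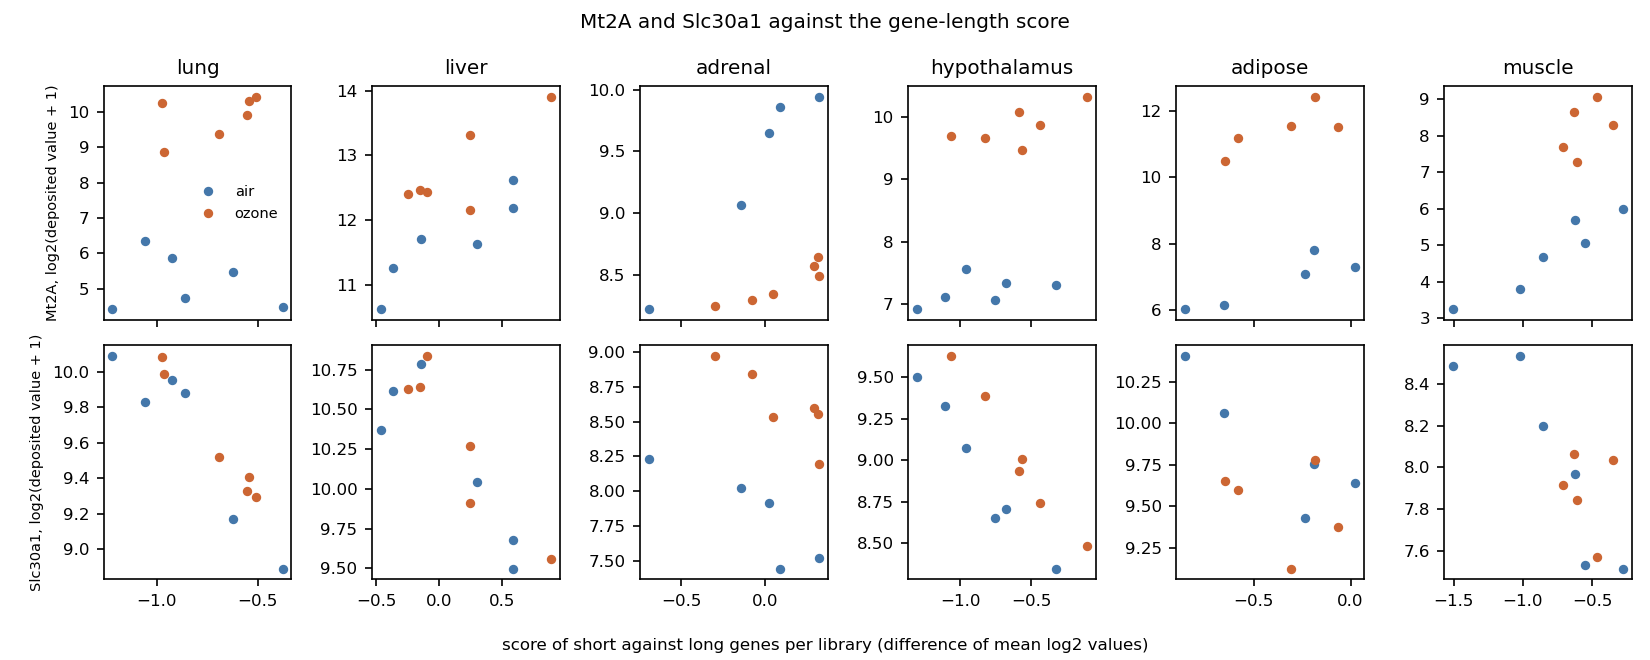
Mt2A (upper row) and Slc30a1 (lower row), as log2(deposited value + 1), against each library's score of short against long genes, by tissue. Within groups Mt2A goes up with the score except in lung, and Slc30a1 goes down with it in every tissue; the scores of air and ozone libraries overlap.

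For the gene lists that follow, the shares of all genes tested that rose and fell were 9.51% and 8.18% in lung, 6.74% and 4.72% in liver, 9.23% and 9.38% in adrenal gland and 0.789% and 0.624% in hypothalamus. They were 21.6% and 22.1% in muscle, against 3.87% and 3.45% in adipose tissue. Of the other SLC30 exporters, 6 were tested per tissue. In lung 1 of them rose, Slc30a3, the carrier that loads zinc into synaptic vesicles, by 2.02 ± 0.18 (limma adjusted p = 4.98e-06). In liver 1 rose, Slc30a2 (1.19 ± 0.22), named after its values were seen because its mean of 39.7 is under the level of 50 set for named genes. In muscle 2 fell, Slc30a5 (−0.44 ± 0.11) and Slc30a4 (−0.50 ± 0.14). In adrenal gland and hypothalamus limma, edgeR and DESeq2 called 0 and none had an unadjusted p under 0.05, and in adipose tissue limma and edgeR called 0, DESeq2 1 and the unadjusted count was 2.

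The other SLC39 importers, 9 to 11 per tissue, gave calls in lung, adrenal gland and muscle. In lung 1 of 11 rose, Slc39a11 (0.49 ± 0.13), and 1 fell, Slc39a10 (−0.70 ± 0.12), a zinc importer of the cell surface. In adrenal gland 1 of 9 rose, Slc39a7 (0.69 ± 0.11), which releases zinc from the endoplasmic reticulum, and 2 fell, Slc39a13 (−0.71 ± 0.19) and Slc39a10 (−0.60 ± 0.19). In muscle 2 of 9 rose, among them Slc39a13 (0.55 ± 0.14), and 4 fell, among them Slc39a10 (−1.39 ± 0.16), Slc39a9 (−0.71 ± 0.12) and Slc39a6 (−0.79 ± 0.18). In each of liver, hypothalamus and adipose tissue limma, edgeR and DESeq2 called 0 and 1 gene had an unadjusted p under 0.05. The median log2 fold change of the list ran from −0.24 in muscle to 0.07 in liver, beside medians of all genes within 0.02 of 0.

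Of 18 iron genes tested in lung 2 rose, Fth1 (0.57 ± 0.15), the heavy chain of the iron store ferritin, and Ncoa4 (0.25 ± 0.08), which delivers ferritin for breakdown, and Bmp6 (−0.68 ± 0.14) fell. Of 19 in liver 2 rose, Ncoa4 (0.75 ± 0.15) and the transferrin receptor Tfrc (0.85 ± 0.20), and the iron exporter Slc40a1 (−0.41 ± 0.11) fell. Of 19 in adrenal gland Tfrc rose (0.92 ± 0.19) and Steap3, an iron reductase, fell (−0.91 ± 0.17). Of 19 in hypothalamus Slc40a1 fell (−0.68 ± 0.13), and of 16 in adipose tissue Tfrc rose (0.99 ± 0.26). Of 16 in muscle 1 rose, Bmp6 (0.54 ± 0.21, named after its values were seen, with a mean of 31.2), and 2 fell, Cp (−1.67 ± 0.21), the ferroxidase ceruloplasmin, and Ncoa4 (−0.49 ± 0.13). Of 9 or 10 copper genes per tissue, the importer Slc31a1 rose in lung (0.47 ± 0.11) and adrenal gland (0.71 ± 0.13), the copper pump Atp7b in adipose tissue (0.79 ± 0.16), and in muscle Ccs (1.00 ± 0.18), the copper chaperone of superoxide dismutase, and Atox1 (0.89 ± 0.34, named after its values were seen, with a mean of 49.8). None fell. In liver the 3 tools called 0 copper genes and none had an unadjusted p under 0.05, and in hypothalamus they called 0 with 2 under it.

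Of 12 tested genes known to respond to glucocorticoids, 11 rose in each of lung and muscle, 8 in adipose tissue, 6 in liver, 5 in hypothalamus and 3 in adrenal gland. Dusp1 fell in muscle (−1.16 ± 0.32, named after its values were seen), and none fell in the other tissues. The cell cycle inhibitor Cdkn1a rose by 3.79 ± 0.21 in liver, 2.66 ± 0.26 in adipose tissue, 2.37 ± 0.21 in hypothalamus, 2.21 ± 0.11 in lung and 0.94 ± 0.18 in adrenal gland. Fkbp5, which tempers the hormone response of the receptor, rose by 2.86 ± 0.19 in liver, 1.90 ± 0.20 in hypothalamus, 1.81 ± 0.28 in adipose tissue and 0.60 ± 0.14 in adrenal gland. In muscle the genes of lowest adjusted p were Ddit4 (4.12 ± 0.30), Zbtb16 (2.20 ± 0.17), Errfi1 (2.37 ± 0.26) and Klf9 (1.02 ± 0.13), and in lung Errfi1 (1.59 ± 0.11), Cebpd (1.35 ± 0.10) and Nfkbia (1.16 ± 0.11) stood beside Cdkn1a. The next by adjusted p were Ddit4 (0.87 ± 0.18) and Per1 (1.91 ± 0.44) in liver, Nfkbia (0.82 ± 0.14) and Zbtb16 (2.27 ± 0.39) in hypothalamus, Errfi1 (1.74 ± 0.21) and Tsc22d3 (1.25 ± 0.22) in adipose tissue, and Dusp1 (1.13 ± 0.30) in adrenal gland.

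Of the antioxidant genes driven by the factor NRF2, 4 of 11 rose in lung and none fell. They were Txnrd1 (0.67 ± 0.10), Gclc (0.66 ± 0.10), Osgin1 (1.18 ± 0.20) and Nqo1 (0.45 ± 0.11). In liver 3 of 10 fell and none rose, Osgin1 (−4.06 ± 0.38), Nfe2l2 (−1.44 ± 0.14), which encodes NRF2, and Gclm (−0.97 ± 0.19). In adrenal gland 2 of 12 rose, Nqo1 (0.81 ± 0.17) and Txnrd1 (0.84 ± 0.20), and Gsr fell (−0.45 ± 0.11). In muscle 1 of 10 rose, Keap1 (0.53 ± 0.14), and 4 fell, among them Nfe2l2 (−0.68 ± 0.15) and Gsr (−0.75 ± 0.17). In hypothalamus limma, edgeR and DESeq2 called 0 with 1 unadjusted p under 0.05, and in adipose tissue limma and edgeR called 0, DESeq2 1, with 1 under it.

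Of 16 IL-6 and STAT3 genes in lung, 5 rose and 1 fell. Those of lowest adjusted p were the receptor Il6r (0.88 ± 0.12), Socs3 (1.26 ± 0.20), which limits the signal, Lcn2 (0.85 ± 0.15) and Stat3 (0.42 ± 0.09). In liver 3 of 16 rose and none fell, Stat3 (0.91 ± 0.12), Il6r (1.36 ± 0.25) and Cebpb (0.76 ± 0.18). In adrenal gland 2 of 16 rose, Stat3 (1.03 ± 0.15) and Osmr (0.77 ± 0.23), and Saa4 fell (−0.92 ± 0.16). In adipose tissue Il6r rose (0.80 ± 0.16) and 1 of 12 fell, Crp, and in muscle 2 of 10 fell, Lbp and Socs3, all 3 named after their values were seen, with means under 50. In hypothalamus limma and edgeR called 0 of 16, DESeq2 1, with 4 unadjusted p-values under 0.05.

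Among 7877 genes with a mean of at least 50 in every tissue, the gene most like Mt2A over all 68 libraries was Mt1. With values centred on tissue means, Pearson r was 0.94 for Mt1, 0.84 for Errfi1, 0.84 for Rcl1, 0.82 for Fkbp5 and 0.82 for Nfkbia. With values centred on tissue and exposure, the order was Mt1 (0.87), Apoe (0.78), LOC687780 (0.73), Sod1 (0.72) and Spcs1 (0.72). Mt1m, with a mean of 38.1 in muscle, was not among the genes compared. Values centred on tissue means alone still hold the difference between ozone and air, so genes that rose with Mt2A rank high. The libraries also share depth and the length score above, so these values are a description. Within tissues, residuals of Mt1 and Mt2A had r of 0.69 in hypothalamus and 0.88 to 0.96 elsewhere, while Mt2A and Mtf1 had r from −0.83 in muscle to 0.11 in lung.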

How the data were processed

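RNA of 6 rat tissues was sequenced. Per the labels' protocols, messenger RNA was selected on an Apollo324 system and run on a NextSeq 500; rn6, DESeq2 and Partek are named in the submitters' processing notes. The deposited values are a signal, gene counts that the authors divided by 1 size factor per library in each tissue's table. Of 70 listed samples, 2 (adrenal air 7, muscle ozone 17) were not analysed here. Of 19465 entries, 24 named by a date were left out. Reads came out whole for 100% of values above 0 (tolerance 0.01). No library pair of a group agreed within counting noise (lowest chi-square per degree of freedom 8.76).

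On the log2(value + 1) scale limma 3.58.1 (trend, robust, R 4.3.3) tested genes with a mean of at least 10, ozone against air per tissue, with Benjamini-Hochberg adjustment over all genes. A call, written as rose or fell, is an adjusted p under 0.05. The effect across tissues came from 1 limma fit over genes passing in all 6 tissues. That fit pools the spread of the tissues, which on simulated data made false calls more frequent than intended, so tissue weights were added as an alternative. The mean effect over tissues, the length score and the sets of libraries left out for their markers were chosen after seeing the data. Rpm uses a pseudocount of 0.1 on the log2 scale. edgeR 4.0.16 and DESeq2 1.42.0 on recovered reads, other pseudocounts, filters, TMM scaling, array weights and left-out libraries were alternatives. All 9 genes are named; from other lists, per tissue, at most 4 called genes with the lowest adjusted p and a mean of at least 50, and the 5 genes most like Mt2A. The genes and lists were chosen with earlier results of these data known. Fits were tested on simulated data. The equal numbers of libraries in different tissues are not stated to mark 1 rat. The adipose median without Mt3 was added after the data were seen. One gene that the naming rule selects is not reported here.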

Additional observations from a re-analysis of the deposited data

Results flagged for a closer look

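The ozone effect differed between tissues for Mt1 (adjusted p = 3.89e-12), Mt1m (adjusted p = 6.93e-08), Mt2A (adjusted p = 3.16e-13) and Slc39a8 (adjusted p = 0.000903), by the limma F test. In 94 groups of 5 or 6 libraries, 6 held a library far from the rest, and chance gives this in about 1 of 20 groups.

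The deposited value of Slc39a8 was 1286 in adipose air 5, with the next at 677, and 1149 in adipose ozone 22, with the next at 332. Adipose ozone 22 also stood apart for Mt3, at 155 against 4.81 or less. Both libraries had the highest mesothelium markers of their group. Slc39a8 in adrenal air 8 had 356 against 274 for the nearest library. Mt1 had 366 in adrenal ozone 16, the lowest of its group, and 855 in hypothalamus ozone 17, the highest. Hypothalamus ozone 17 also had the most liver marker reads of its group, 1485 rpm. At the ratio seen in air liver these would carry 9.96 of its 217 rpm of summed metallothionein.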

How the results depend on the processing

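Calls of a gene in a tissue, of the F test or of the mean over tissues held in 785 of 813 fits with 1 library left out and in 200 of 207 other alternative fits. These totals are dominated by the F test and the mean, where each call counts 68 left-out fits and none was lost. With 1 library left out, lung Slc39a8 was lost in 10 of 12 fits and adrenal Mt1m in 7 of 11. Adrenal Mt2A was lost in 6 of 11 and adipose Slc39a14 in 5 of 10. The losses in other alternative fits were of the same calls. Values that did not pass did so in 14 of 671 and 24 of 292, and changed sign in 25 and 6. The cause was not tested unless given.

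Genes called numbered 2623 in lung, 1440 in liver, 2609 in adrenal gland, 215 in hypothalamus and 1043 in adipose tissue. Array weights gave 3941, 2302, 4822 and 723 in the first 4. DESeq2 gave 551 in hypothalamus and 1616 in adipose tissue. The length score as a covariate gave 2522 in liver, 4694 in adrenal gland and 1858 in adipose tissue, and leaving out the 3 adipose libraries high in mesothelium markers gave 390. With 1 library left out, the count ran from 105 (without ozone 16) to 286 (without ozone 15) in hypothalamus and from 609 (without air 5) to 1224 (without ozone 22) in adipose tissue.

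Except for fits with 1 library left out, counts of the 9 genes stand beside those of all genes in the fit. In liver 8 were tested, and 1 was called with a minimum mean of 50, beside 1302 of all 9612 genes. DESeq2 called 1, beside 1862 of 12573, array weights 3, beside 2302, and the covariate 4, beside 2522. With 1 library left out 0 to 2 were called. In adrenal gland 8 were tested. Array weights called 5, beside 4822 of 14026 genes, and the covariate 5, beside 4694. Without air 9 and air 11 the count was 1, beside 1956 of 14000, and with 1 library left out 1 to 5. In hypothalamus 9 were tested, and DESeq2 and array weights called 5 each, beside 551 and 723 of 15217 genes. With a minimum mean of 50 only 5 of them were tested in muscle and across tissues. Called were 2 in muscle, beside 4612 of 10093 genes, and 2 by the F test, beside 3428 of 7878. The mean over tissues called 3, beside 3758 of 7878.

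Sign changes concerned values that did not pass. Lung Mtf1 was −0.045 without air 2 and air 8, −0.0057 with the covariate and −0.047 to 0.12 with 1 library left out. Lung Slc30a1 was 0.10, 0.18 and −0.18 to 0.059 in the same fits. The covariate gave 0.066 for muscle Slc30a1. Adrenal Mtf1 was −0.10 without air 9 and air 11 and −0.12 to 0.29 with 1 library left out. Leaving out 1 library gave −0.11 to 0.18 for liver Mtf1, −0.023 to 0.21 for hypothalamus Slc30a1 and −0.052 to 0.015 for the mean of Mtf1.

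With the library number as a replicate block the F test called 4667 genes instead of 4654, and the same count of 4 of the 9 genes. Over 90 pairs of equal number in different tissues the median correlation of deviations was 0.01, and 34 exceeded 0.1. This cannot decide whether equal numbers mark the same rat, because tissues of the same rat need not deviate together. Within a tissue no paired analysis was possible because air and ozone libraries share no number.

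Depth limited Mt3 outside hypothalamus and Slc30a10 outside liver and hypothalamus, where most libraries held few reads.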
